A study of Mus musculus with 9 samples.

Results

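Of 478 mouse microRNA genes represented by their own probe sets, 92 (19.2%) had a mean signal above the midpoint of the arrays, and these 92 are described here. They were chosen from probe sets that carry a single gene symbol beginning with Mir or Mirlet and a digit and not ending in hg, the ending of host transcripts. A gene was kept if its mean over all 9 arrays was above 5.09, the median of the means of all 23521 single-symbol probe sets on the log2 scale. Where a gene had several probe sets, the brightest stood for it. The rule used the level over all groups together and no difference between groups, so that the levels are a description. Each group's level enters that mean, so a gene high in a group passed more readily than a gene low in a group. The balance of rises and falls among the 92 can therefore be shaped in part by the rule, to an extent that was not tested. The remaining 386 microRNA genes were at or below that median.

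Total RNA came from hMLKL1-181-2Fv-NIH3T3 cells, a line of mouse fibroblasts engineered with a portion of human MLKL joined to 2Fv. In necroptosis, MLKL acts at the end of the pathway by damaging the cell membrane. B/B is a dimerizer, which draws proteins bearing Fv to one another. Each of 3 groups had 3 one-colour Affymetrix arrays. In the washout group, cells that stained with annexin V were sorted after 1 h of B/B at 50 nM and then kept for 6 h in washout at 3000 nM of a compound that the labels do not name. The B/B 1 h group was the same sorted fraction without the washout. Control cells are labelled only as control treatment. All 3 groups carry the fusion protein, and whether the line is a single clone is not stated. Whether control cells were sorted, and when they were harvested, is not stated either, so that the effects of B/B, of sorting and of time in culture cannot be told apart. The labels do not say that the arrays of a group came from separate cultures. The p-values therefore measure the spread between these arrays, which may be technical.

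MicroRNAs are short RNAs that guide Argonaute proteins to partly complementary messenger RNAs and lower their translation or stability. They are cut from hairpins in longer primary transcripts, first by the nuclear enzyme Drosha with its partner Dgcr8 and then by Dicer in the cytoplasm. Many lie inside the introns of protein-coding genes or in clusters that share a primary transcript. The seed, bases 2 to 8 of the mature strand, is the main determinant of which messages are bound. In fibroblasts, families such as let-7 and the Mir17 to Mir92-1 cluster are known for effects on proliferation. Whether these probe sets read the primary transcript, the hairpin, the mature strand or overlapping RNA is not given in the sources used here, so each value is called the level of a microRNA gene's probe set.

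The mature strands of the genes with the largest differences are shown first, from RefSeq for mouse build GRCm38.p6, with the seed in capitals. Mir23a and Mir27a are neighbours on chromosome 8 and were higher at 1 h of B/B. Mir1938, Mir5123, Mir1931 and Mir99b followed the same course. Mir677, Mir18 and Mir505 were lower at 1 h.
mmu-miR-23a-3p: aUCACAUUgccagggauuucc
mmu-miR-27a-3p: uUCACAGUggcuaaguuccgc
mmu-miR-1938: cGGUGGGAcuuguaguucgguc
mmu-miR-5123: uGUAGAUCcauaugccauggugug
mmu-miR-1931: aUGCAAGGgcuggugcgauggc
mmu-miR-99b-5p: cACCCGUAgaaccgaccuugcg
mmu-miR-677-5p: uUCAGUGAugauuagcuucuga
mmu-miR-18a-5p: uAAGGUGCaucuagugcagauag
mmu-miR-505-3p: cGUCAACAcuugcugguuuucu
Those that were lowest or highest after washout are given next, for the same purpose.
mmu-let-7e-5p: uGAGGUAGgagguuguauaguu
mmu-miR-15a-5p: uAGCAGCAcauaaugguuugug
mmu-miR-139-5p: uCUACAGUgcacgugucuccag
mmu-miR-3089-5p: uGAGUUCAgggacagcgugucu
mmu-miR-1945: uCUUCGCGgguacugucgggac
mmu-miR-5103: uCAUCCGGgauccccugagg
Hairpins follow for 4 genes, with the mature arms in capitals, because which part of them the probe sets read is not known. Mir23a lies at chr8:84208518-84208592 and Mir27a at chr8:84208672-84208758, both on the plus strand. Mir677 lies at chr10:128085286-128085363 and Mir18 at chr14:115043851-115043946, also on the plus strand.
Mir23a: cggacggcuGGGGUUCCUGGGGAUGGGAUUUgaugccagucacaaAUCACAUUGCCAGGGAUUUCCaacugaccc
Mir27a: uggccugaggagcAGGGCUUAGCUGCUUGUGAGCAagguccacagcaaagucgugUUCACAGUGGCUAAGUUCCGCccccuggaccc
Mir677: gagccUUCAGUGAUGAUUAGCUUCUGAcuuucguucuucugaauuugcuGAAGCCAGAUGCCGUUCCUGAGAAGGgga
Mir18: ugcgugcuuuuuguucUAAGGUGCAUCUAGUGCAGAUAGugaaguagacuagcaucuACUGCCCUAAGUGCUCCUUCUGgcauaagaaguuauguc

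RefSeq mature sequences were found for 82 of the 92 genes, and these 134 mature strands held 129 distinct seeds. Only 4 seeds were shared by more than 1 of these genes. Mirlet7a-1, Mirlet7e and Mirlet7i share the let-7 seed, Mir181c and Mir181d share another, and so do Mir219a-1 with Mir219a-2 and Mir3473d with Mir674. Among genes whose probe sets moved together at 1 h, the strands printed above all carry different seeds. Whether the mature strands themselves changed is not known.

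The deposited values had medians of 4.60 to 4.68 per array. Over genes, the Pearson correlation was 0.998 to 0.999 within a group and 0.99 to 0.998 between groups. The first B/B 1 h replicate had the lowest array weight, 0.563, against 0.923 to 1.29 for the others. All 10 fibroblast markers were above the median, with mean levels per array of 9.88 to 9.90 in washout cells, 10.28 to 10.31 in B/B 1 h cells and 10.27 to 10.30 in control cells. Markers of other cells were mostly dim: 2 of 7 leukocyte markers were above the median (Cd68 and Cd14, with Ptprc, which all leukocytes express, at 3.31), as were 2 of 5 epithelial and 1 of 5 endothelial markers. The leukocyte list had mean levels of 4.97 to 5.03 in washout, 4.97 to 5.06 in B/B 1 h and 4.85 to 4.88 in control arrays. Of 9 microRNA genes that mark leukocytes, epithelium, muscle, neurons or liver, only Mir9-1 was above the median. In bulk RNA, fewer cells of a type and less RNA per cell cannot be told apart.

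The 92 microRNA genes had mean probe set levels of 5.12 to 12.69 on the log2 scale, with a median of 6.32. Of these, 13 were above 8 and 38 below 6, so many stood close to the threshold. In 82 genes all 3 group means were above the median that set the rule. In the other 10 at least 1 group was at or below it: Mir677, Mir18, Mir5120, Mir3085, Mir877, Mir874, Mir107, Mir5103, Mir758 and Mir505. The median standard deviation within a group was 0.134 log2 units and the largest was 0.512, of Mir23a after washout. Because probes differ in how brightly they bind, these levels do not rank the genes by abundance.

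After 1 h of B/B most of these genes lay above control. In B/B 1 h cells 11 of the 92 rose and 4 fell against control (limma moderated test, Benjamini-Hochberg adjusted p under 0.05 over 22180 genes), where 1.01% of all genes rose and 1.88% fell. Over all 478 microRNA genes, with those at or below the median included, the balance was the other way, with 12 higher and 17 lower. The median log2 difference was 0.12, against 0.00 for all genes, and 74 of the 92 differences were above zero. Arrays of both groups did not overlap for 35 of the 92 genes (38.0%), compared with 21.3% of all genes. At an unadjusted p under 0.05 there were 29 higher and 8 lower.

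After the washout the balance lay on the other side. In washout cells 8 of the 92 rose and 25 fell against B/B 1 h cells, where 16.6% of all genes rose and 12.0% fell. The median difference was -0.22, against -0.02 for all genes, and 17 of the 92 differences were above zero. Arrays did not overlap for 49 genes (53.3%), compared with 39.6% of all genes.

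Against control, 6 of the 92 rose and 16 fell in washout cells, where 14.5% of all genes rose and 11.7% fell. The median difference was -0.05, against 0.00 for all genes, and 38 differences were above zero. The groups did not overlap for 34 genes (37.0%), which was close to the 38.0% of all genes. These 3 comparisons share arrays in pairs, so they are not independent of each other.

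A test across all 3 groups called 36 of the 92 genes (39.1%), compared with 29.5% of all genes, and 39 were called in at least 1 pairwise comparison. Of these, 8 rose at 1 h and fell between 1 h and washout: Mir1938, Mir23a, Mir27a, Mir5123, Mir1931, Mir99b, Mir5125 and Mir1190. Mir677, Mir18 and Mir505 fell at 1 h and rose afterwards. For calls in at least 1 comparison and for these courses, no count over all genes was made. Called differences of 2-fold or more numbered 5 for B/B 1 h against control, 6 for washout against B/B 1 h and 3 for washout against control. Among all 22180 genes they numbered 39, 274 and 226 in the same order. The mean level of the 92 genes was 6.61, 6.57 and 6.53 on the washout arrays, 6.91, 6.78 and 6.78 on the B/B 1 h arrays, and 6.66, 6.70 and 6.67 on the control arrays. For these 92 genes the B/B 1 h arrays were thus above all others and the washout arrays below all others, with no overlap. Over all genes the mean was 5.89 on each washout array and 5.87 to 5.88 on the B/B 1 h and control arrays. The 92 were chosen by their level on these same arrays, so this order is a description of them only.

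**Figure D1:**
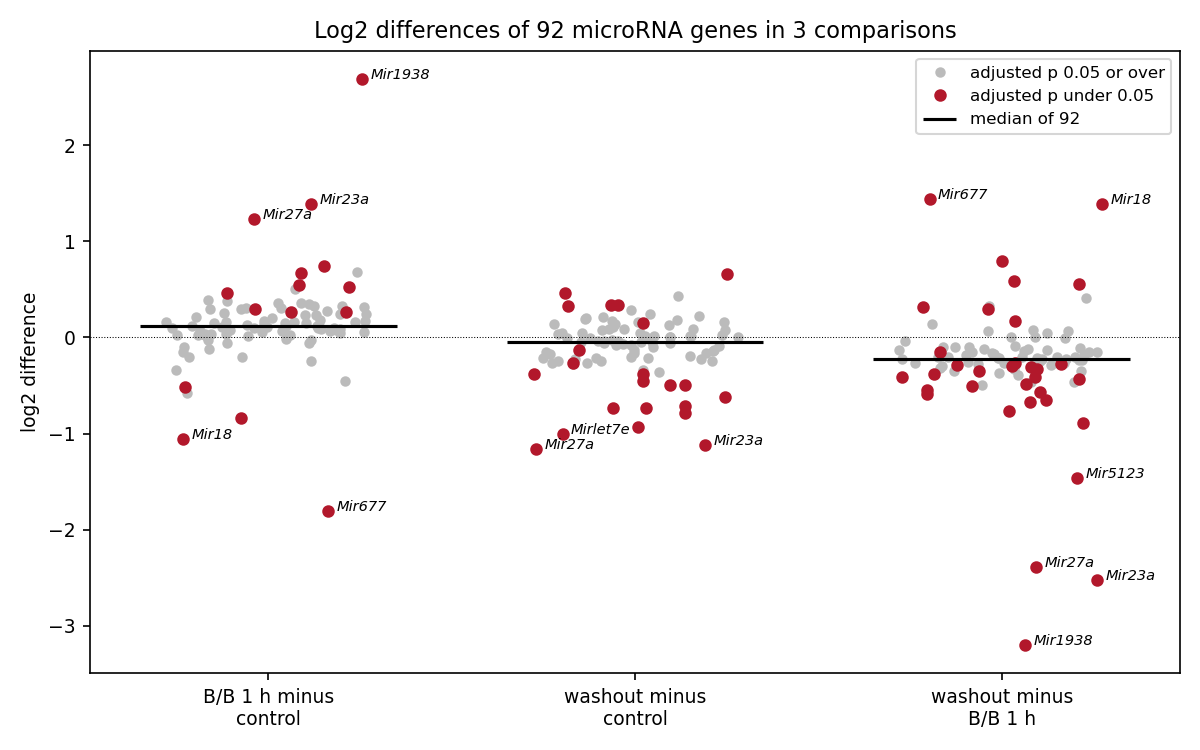
Log2 differences (vertical axis) of the 92 microRNA genes in 3 comparisons (horizontal axis). Each point is 1 gene, red where the adjusted p was under 0.05, and black lines mark the medians of 0.12, -0.05 and -0.22. Genes called at 2-fold or more are named.

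**Figure D2:**
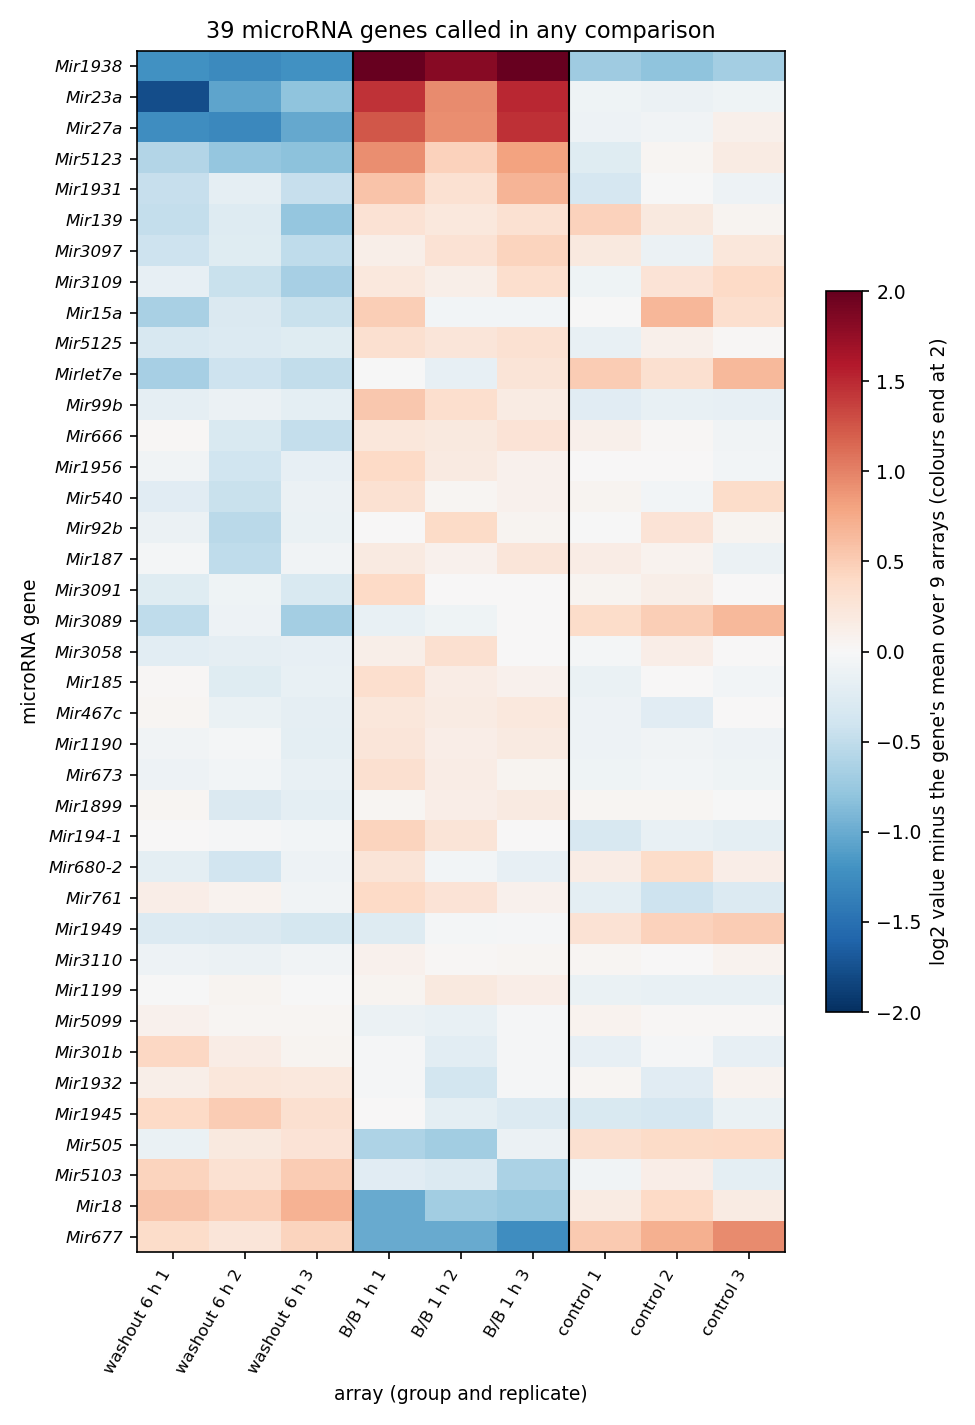
The 39 microRNA genes called in any comparison (rows, ordered by washout minus B/B 1 h) on each of the 9 arrays (columns), coloured by the log2 value minus the gene's mean over the arrays. Colours end at 2 log2 units. The block of B/B 1 h arrays is high for the upper rows and low for Mir505, Mir5103, Mir18 and Mir677 at the foot.

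The Mir23a to Mir24-2 cluster moved as a unit. Mir23a and Mir27a, whose hairpins are 79 bases apart, are cut from a shared primary transcript together with Mir24-2, and the cluster has been studied in T cells and blood formation. Mir27a read 6.90, 6.86 and 7.12 in washout cells, 9.39, 9.07 and 9.60 in B/B 1 h cells and 8.05, 8.07 and 8.24 in control cells. All 3 groups were separate, with B/B 1 h highest and washout lowest. Mir27a was 2.35-fold higher in B/B 1 h than in control cells (log2 difference 1.23 ± 0.12 SE, adjusted p = 0.000723). After washout it was 5.25-fold lower than at 1 h (log2 difference -2.39, adjusted p = 1e-06) and 2.24-fold lower than in control cells (-1.16, adjusted p = 9.08e-05).

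Mir23a read 5.22, 5.95 and 6.20 in washout cells, 8.45, 7.95 and 8.51 in B/B 1 h cells and 6.91, 6.89 and 6.92 in control cells. The order was that of Mir27a, with no overlap, but the washout arrays were the most scattered of any of the 92 genes. Mir23a was 2.63-fold higher in B/B 1 h than in control cells (log2 difference 1.39 ± 0.23 SE, adjusted p = 0.0123). That call was lost without moderation of the variances, without the first B/B 1 h replicate and without the third control replicate, where the adjusted p reached 0.0747. Its differences after washout were -2.52 against B/B 1 h (5.72-fold lower, adjusted p = 2.75e-05) and -1.12 against control (2.17-fold lower, adjusted p = 0.00457).

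The third hairpin of this cluster is represented only by probe sets that name both Mir24-2 and Mir3074-2, which overlap, so it is not among the 92. The brighter of its 2 probe sets read 3.95, 4.04 and 3.90 in washout cells, 5.73, 5.49 and 6.06 in B/B 1 h cells and 4.49, 4.57 and 4.76 in control cells. It kept the order of its neighbours without overlap, with log2 differences of 1.15 for B/B 1 h against control (adjusted p = 0.00105), -1.79 for washout against B/B 1 h (adjusted p = 1.35e-05) and -0.64 for washout against control (adjusted p = 0.00654). The dimmer probe set of the same pair of names stayed between 2.63 and 2.74 on all 9 arrays. The nearest genes to the cluster in the gene table, Zswim4 and Nanos3, lie on the other strand and were not called in any of the 3 comparisons (log2 differences of -0.12 to 0.10). Mir23a and Mir27a had a Pearson correlation of 0.978 over the 9 arrays, which is a description only, since the arrays fall into 3 groups.

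**Figure D3:**
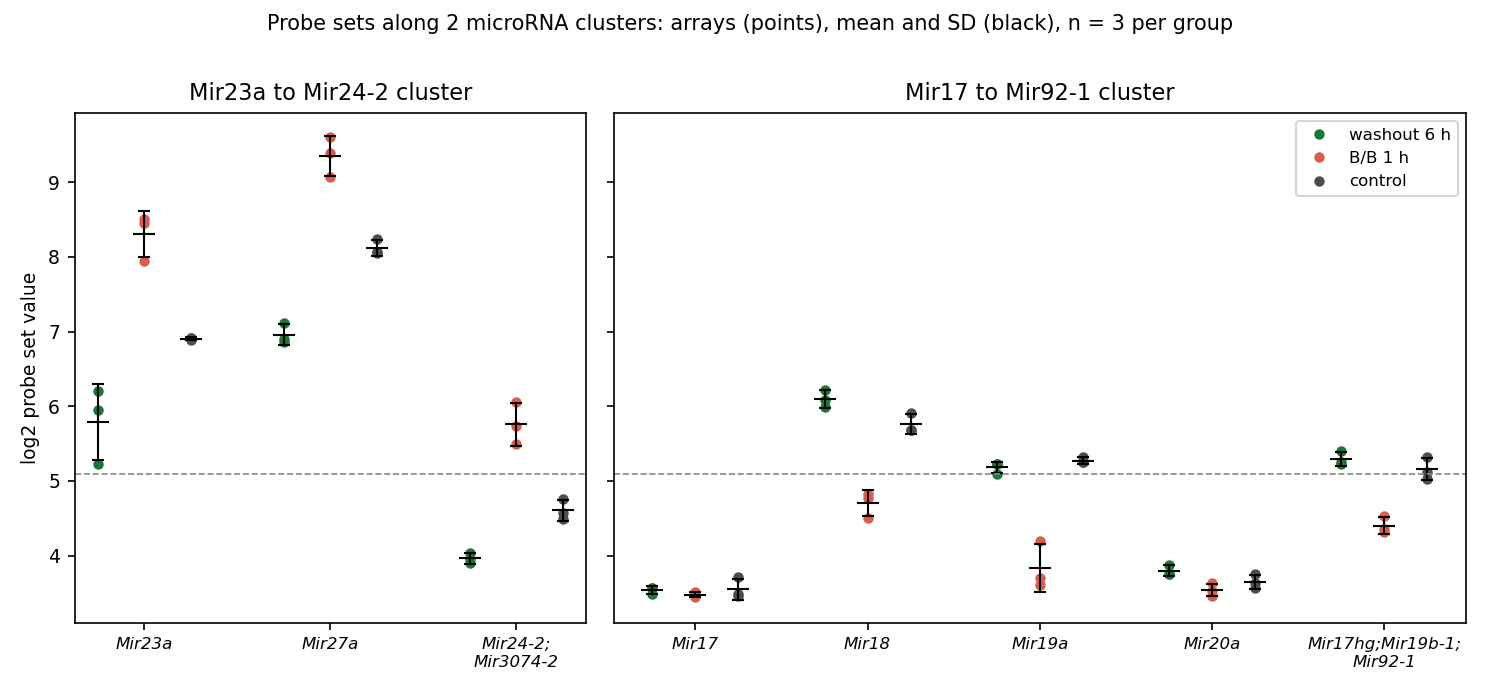
Log2 probe set values (vertical axis) of the hairpins along the Mir23a to Mir24-2 cluster (left) and the Mir17 to Mir92-1 cluster (right), with washout, B/B 1 h and control arrays from left to right for each. Points are arrays, black lines the mean and SD of 3, and the dashed line is the median of 5.09 that set the rule. On the left all hairpins are highest at B/B 1 h, and on the right Mir18, Mir19a and the probe set of Mir17hg, Mir19b-1 and Mir92-1 are lowest there.

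Mir1938 had the largest rise of the 92 at 1 h. It read 6.59, 6.52 and 6.58 in washout cells, 9.86, 9.61 and 9.80 in B/B 1 h cells and 7.09, 6.99 and 7.11 in control cells. The groups were separate by far more than the spread of the arrays. It was 6.47-fold higher in B/B 1 h than in control cells (log2 difference 2.69 ± 0.067 SE, adjusted p = 9.15e-08). After washout it was 9.16-fold lower than at 1 h (-3.20, adjusted p = 3.09e-09) and 1.42-fold lower than in control cells (-0.50, adjusted p = 0.000367).

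Mir1938 lies within the span of Ifrd1, on the same strand and 378 bases from the start of that gene, which encodes a transcriptional coregulator. Ifrd1 itself read 9.52, 9.54 and 9.56 in washout cells, 10.24, 10.18 and 10.24 in B/B 1 h cells and 9.34, 9.44 and 9.45 in control cells. It rose 1.75-fold at 1 h (log2 difference 0.81, adjusted p = 1.19e-05) and was 1.6-fold lower after washout than at 1 h (-0.68, adjusted p = 3.82e-06). In both of these comparisons host and microRNA gene moved the same way, and the microRNA probe set by more. In washout against control their signs differed, with 0.13 for Ifrd1 (adjusted p = 0.0596, not called) and -0.50 for Mir1938. Lsmem1, a gene on the same strand 3.8 kb from the end of Ifrd1, read 5.09, 5.37 and 5.43 in washout cells, 7.95, 7.49 and 7.70 in B/B 1 h cells and 5.13, 4.86 and 4.93 in control cells. Its log2 differences were 2.74 at 1 h (adjusted p = 4.18e-06) and -2.42 for washout against B/B 1 h (adjusted p = 1.07e-06). Lsmem1 was chosen for mention after its values were seen. Whether the 3 probe sets read a common transcript was not tested.

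Other genes followed this course with smaller differences. Mir5123 lies within B4galt1, which encodes a Golgi galactosyltransferase. It read 6.51, 6.32 and 6.27 in washout cells, 8.02, 7.55 and 7.90 in B/B 1 h cells and 6.85, 7.13 and 7.26 in control cells. It was 1.67-fold higher at 1 h than in control cells (adjusted p = 0.0216), 2.74-fold lower after washout than at 1 h (adjusted p = 3.39e-05) and 1.64-fold lower after washout than in control cells (adjusted p = 0.00314). B4galt1 did not share that course: its log2 difference was -0.01 at 1 h (adjusted p = 0.934) and 0.26, a rise, for washout against B/B 1 h (adjusted p = 0.00119).

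Mir1931 lies within Cdk17, a cyclin-dependent kinase gene whose strand the sequence tables do not give. It read 6.42, 6.70 and 6.41 in washout cells, 7.44, 7.18 and 7.56 in B/B 1 h cells and 6.54, 6.86 and 6.77 in control cells. B/B 1 h stood apart from both other groups, which overlapped each other. Mir1931 rose 1.59-fold at 1 h (adjusted p = 0.0192) and was 1.85-fold lower after washout (adjusted p = 0.000359), while Cdk17 had a log2 difference of 0.00 at 1 h and rose by 0.43 between 1 h and washout (adjusted p = 0.000227).

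Mir5125, within the splicing factor gene Srrm2, was higher at 1 h by 0.30 (adjusted p = 0.0379) and lower after washout than at 1 h by a log2 difference of -0.57 (adjusted p = 0.000103), and it differed from control at a log2 difference of -0.27 after washout (adjusted p = 0.0109). Srrm2 had differences of 0.17 at 1 h (adjusted p = 0.0568) and -0.31 for washout against B/B 1 h (adjusted p = 0.000288). Mir1190 rose by 0.27 at 1 h (adjusted p = 0.0266) and its difference for washout against B/B 1 h was -0.29 (adjusted p = 0.00231). The remaining genes that rose at 1 h were Mir761 in the nardilysin gene Nrd1 (0.55, adjusted p = 0.015), Mir194-1 (0.46, adjusted p = 0.0425) and Mir1199 (0.27, adjusted p = 0.0205). For these 3 no call was made between washout and B/B 1 h.

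The calls at 1 h for Mir1931, Mir5123, Mir5125, Mir1190, Mir1199, Mir761 and Mir194-1 were each lost when at least 1 B/B 1 h or control array was left out. That of Mir99b was lost without moderation (adjusted p = 0.0527), and those of Mir1938 and Mir27a were kept in each alternative run.

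**Figure D4:**
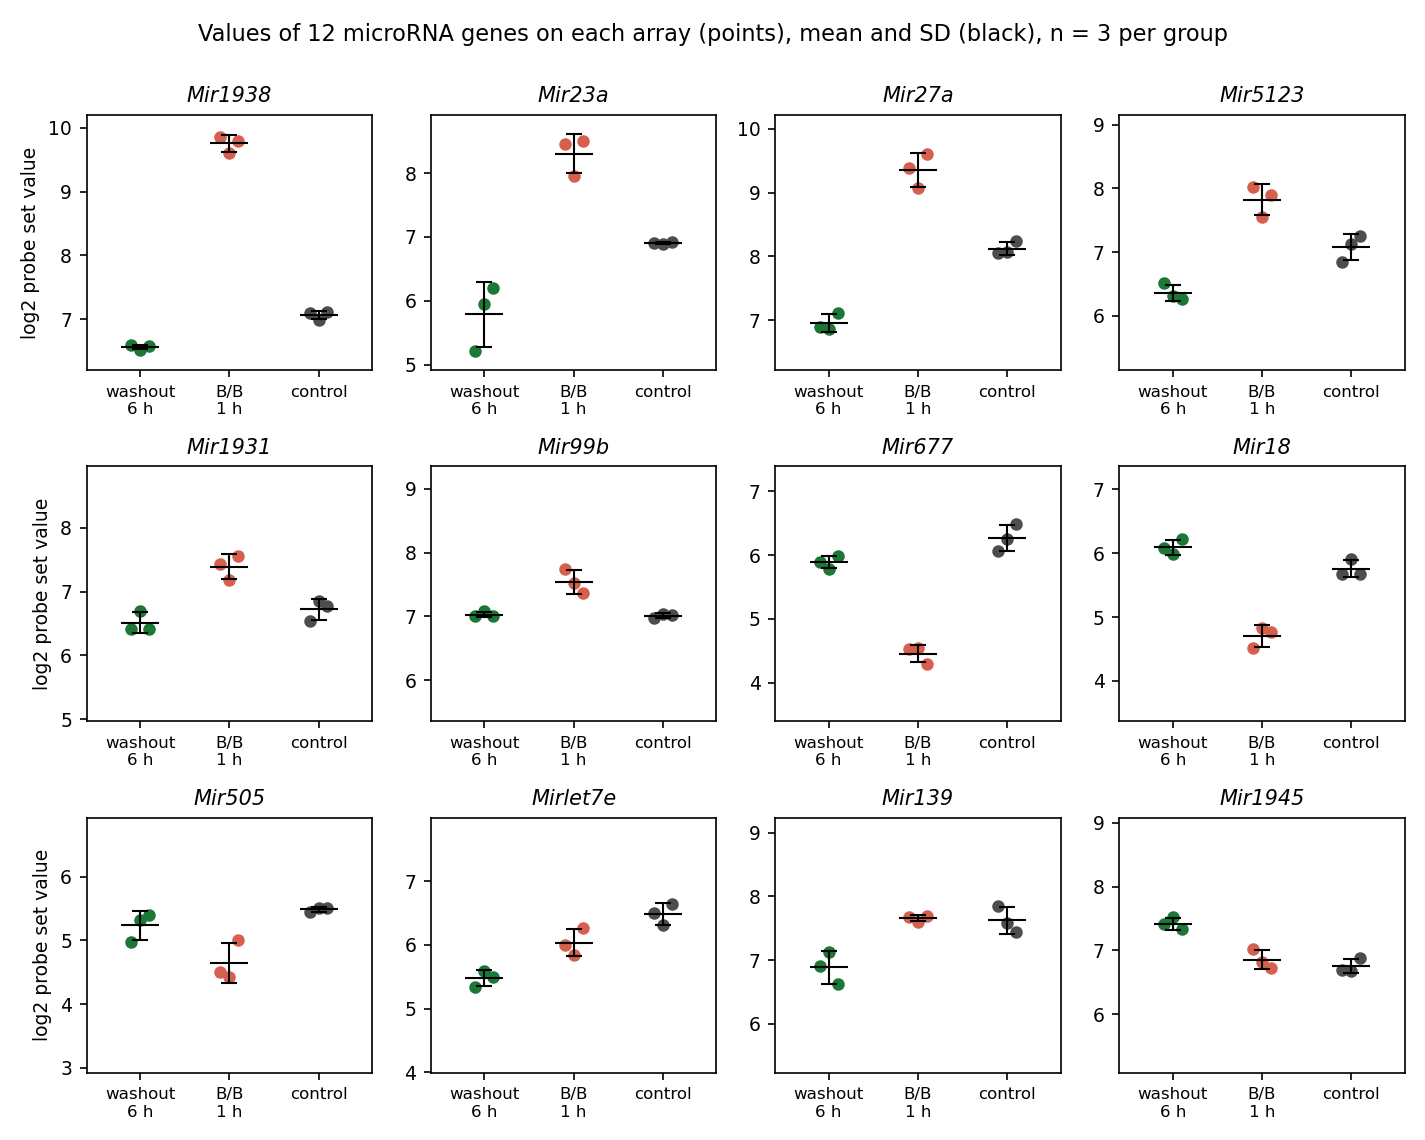
Log2 probe set values (vertical axis, 4 log2 units in each panel) of 12 microRNA genes in washout, B/B 1 h and control cells (horizontal axis, 3 arrays each). Points are arrays and black lines the mean and SD. Mir1938 to Mir99b are highest at B/B 1 h, Mir677, Mir18 and Mir505 are lowest there, and Mirlet7e, Mir139 and Mir1945 stand apart after washout.

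Of the 4 genes that fell at 1 h, Mir677 fell furthest. It read 5.90, 5.79 and 5.99 in washout cells, 4.53, 4.54 and 4.30 in B/B 1 h cells and 6.07, 6.25 and 6.49 in control cells. The groups did not overlap, and the B/B 1 h level was below the median of 5.09 that set the rule. Mir677 was 3.52-fold lower in B/B 1 h than in control cells (log2 difference -1.81 ± 0.11 SE, adjusted p = 2.15e-05). After washout it was 2.71-fold higher than at 1 h (1.44, adjusted p = 9e-06) and 1.3-fold lower than in control cells (-0.38, adjusted p = 0.0281), and this last call was lost without 4 of the 9 arrays in turn. Its host Atp5b, the beta subunit of mitochondrial ATP synthase, stood between 12.58 and 12.61 on all 9 arrays and had log2 differences of -0.01 in all 3 comparisons.

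Mir18 makes miR-18a, part of the Mir17 to Mir92-1 polycistron, a growth-promoting cluster known as a target of MYC. It read 6.08, 5.99 and 6.22 in washout cells, 4.51, 4.83 and 4.77 in B/B 1 h cells and 5.68, 5.91 and 5.68 in control cells. The B/B 1 h arrays were lowest and the washout arrays highest, without overlap. Mir18 was 2.08-fold lower in B/B 1 h than in control cells (-1.06 ± 0.099 SE, adjusted p = 0.000455) and 2.63-fold higher after washout than at 1 h (1.39, adjusted p = 6.15e-06). The washout value was above control by 0.34 (adjusted p = 0.0312), a call lost without either of 2 control and 2 washout replicates.

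The neighbours of Mir18 were at or below the median in their means and are given for comparison. Mir19a read 5.22, 5.23 and 5.09 in washout cells, 3.61, 3.70 and 4.20 in B/B 1 h cells and 5.25, 5.25 and 5.32 in control cells, with log2 differences of -1.44 at 1 h (adjusted p = 0.000325) and 1.34 for washout against B/B 1 h (adjusted p = 3.87e-05). The probe set that names Mir17hg, Mir19b-1 and Mir92-1 had differences of -0.76 (adjusted p = 0.00131) and 0.89 (adjusted p = 9.48e-05). These shared the course of Mir18. Mir17 stayed between 3.44 and 3.71 on all arrays and was not called, and Mir20a had differences of -0.11 (adjusted p = 0.398) at 1 h and 0.26 (adjusted p = 0.0116) for washout against B/B 1 h.

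Mir505 read 4.98, 5.32 and 5.40 in washout cells, 4.50, 4.42 and 5.0 in B/B 1 h cells and 5.44, 5.50 and 5.51 in control cells. Washout and B/B 1 h overlapped by 1 array. Mir505 was 1.79-fold lower in B/B 1 h than in control cells (-0.84, adjusted p = 0.0192), and the call was lost without any of 2 B/B 1 h or 3 control replicates. With group means of 5.23 in washout, 4.64 in B/B 1 h and 5.48 in control cells, it passed the rule through its washout and control levels. Mir1949 lies within the span of the snoRNA host gene Snhg4, but whether both are on the same strand is not given. It read 9.35, 9.34 and 9.27 in washout cells, 9.37, 9.59 and 9.60 in B/B 1 h cells and 9.91, 10.09 and 10.13 in control cells. It was lower than in control cells both after washout (-0.73, adjusted p = 8.62e-05) and at 1 h (-0.52, adjusted p = 0.00703). Snhg4 was lower than in control cells at a log2 difference of -0.25 after washout (adjusted p = 0.00934) and at a log2 difference of -0.23 at 1 h (adjusted p = 0.0783).

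Other genes were called after washout and not at 1 h. Mirlet7e belongs to the let-7 family, which represses growth-promoting genes such as Hmga2, and shares a cluster with Mir99b inside Spaca6. It read 5.34, 5.59 and 5.50 in washout cells, 5.99, 5.84 and 6.26 in B/B 1 h cells and 6.50, 6.31 and 6.64 in control cells. The levels did not overlap between any of the groups, with washout lowest. Mirlet7e was 2.01-fold lower in washout than in control cells (-1.01 ± 0.12 SE, adjusted p = 0.000166) and 1.47-fold lower than in B/B 1 h cells (-0.55, adjusted p = 0.00562). It has 2 probe sets, and these values are of the brighter. Over the alternative runs, averaged probe sets among them, the difference ran from -1.09 to -0.63 against control and from -0.65 to -0.29 against B/B 1 h. Both calls were kept in each run.

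Mir99b, of a family known to target mTOR, behaved otherwise at 1 h. It read 7.01, 7.08 and 7.0 in washout cells, 7.74, 7.53 and 7.36 in B/B 1 h cells and 6.97, 7.04 and 7.03 in control cells. It was 1.45-fold higher at 1 h than in control cells (0.53, adjusted p = 0.00943) and 1.43-fold lower after washout than at 1 h (-0.51, adjusted p = 0.00106). Spaca6, a gene of sperm and egg fusion, read 8.14, 8.26 and 8.08 in washout cells, 8.69, 8.44 and 8.68 in B/B 1 h cells and 8.64, 8.79 and 8.79 in control cells. It fell after washout against control (-0.58, adjusted p = 0.000456) and against B/B 1 h (-0.44, adjusted p = 0.00207). The difference between Mir99b and Mirlet7e in their course was not tested.

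Mir15a, which with Mir16-1 lies in the long noncoding gene Dleu2 and is known to target Bcl2, read 6.33, 6.69 and 6.54 in washout cells, 7.48, 6.93 and 6.93 in B/B 1 h cells and 6.98, 7.64 and 7.31 in control cells. It was 1.73-fold lower in washout than in control cells (-0.79, adjusted p = 0.011, with 0.0578 without moderation). Dleu2 differed from control both after washout (-0.81, adjusted p = 0.00136) and at 1 h (-0.94, adjusted p = 0.00601), while Mir15a had a difference of -0.20 at 1 h. Mir16-1, whose mean lay just outside the rule, was not called in any comparison (-0.08 to -0.03).

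Mir139, in the phosphodiesterase gene Pde2a, read 6.91, 7.13 and 6.62 in washout cells, 7.68, 7.60 and 7.69 in B/B 1 h cells and 7.85, 7.58 and 7.44 in control cells. Only the washout arrays stood apart. It was 1.66-fold lower in washout than in control cells (-0.73, adjusted p = 0.00211) and 1.71-fold lower than in B/B 1 h cells (-0.77, adjusted p = 0.00147). Pde2a stayed between 4.44 and 4.70 and was not called.

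Also lower in washout than in control cells were Mir3089 (-0.93, adjusted p = 0.000585), Mir3109 in the annexin gene Anxa2 (-0.62, adjusted p = 0.00924), Mir3097 in the G protein regulator gene Rgs12 (-0.49, adjusted p = 0.00858), Mir680-2 (-0.45, adjusted p = 0.0178) and Mir540 (-0.38, adjusted p = 0.0488). The call of Mir540 was lost in 11 of 18 alternatives, median centring and quantile normalization among them, and that of Mir680-2 in 3. Anxa2 and Rgs12 were not called in any of the 3 comparisons. The smallest called fall was that of Mir3110, at a log2 difference of -0.13 (adjusted p = 0.0396, lost in 10 of 18 alternatives).

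Of the 6 genes higher in washout than in control cells, Mir1945 rose most. It read 7.41, 7.52 and 7.33 in washout cells, 7.02, 6.82 and 6.73 in B/B 1 h cells and 6.70, 6.68 and 6.88 in control cells. The washout arrays were above all others, and B/B 1 h overlapped control. It was 1.58-fold higher in washout than in control cells (0.66, adjusted p = 0.000297) and 1.47-fold higher than at 1 h (0.56, adjusted p = 0.000769). The gene 43 bases away on the same strand, Gspt1, a translation termination factor gene, had the opposite sign against control (-0.33, adjusted p = 0.000638).

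Mir5103 read 5.59, 5.46 and 5.65 in washout cells, 4.92, 4.87 and 4.52 in B/B 1 h cells and 5.08, 5.28 and 4.96 in control cells. It was 1.74-fold higher after washout than at 1 h (0.80, adjusted p = 0.00051) and 1.38-fold higher than in control cells (0.46, adjusted p = 0.0137). Mir301b, of the miR-130 and miR-301 seed family, rose by 0.33 against control (adjusted p = 0.0265) while its host 2610318N02Rik fell by 0.31 on the log2 scale (adjusted p = 0.000503). Mir761, Mir18 and Mir1199 made up the 6, with 0.34, 0.34 and 0.15. Of these 6 calls, those of all but Mir1945 were lost in at least 1 alternative.

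Between washout and B/B 1 h, the genes not yet named in that comparison were all lower in washout, apart from Mir301b (0.30, adjusted p = 0.0383), Mir1932 (0.32, adjusted p = 0.0483), Mir505 (0.59, adjusted p = 0.0146) and Mir5099 (0.17, adjusted p = 0.0233). These 4 calls were lost in 9, 11, 5 and 4 of 18 alternatives, in the order given. Falls were found for Mir3097 (-0.67), Mir3109 (-0.65), Mir15a (-0.59), Mir666 (-0.48), Mir1956 (-0.43), Mir92b (-0.41), Mir540 (-0.41), Mir187 (-0.38), Mir3091 (-0.35), Mir3058 (-0.33), Mir185 (-0.31), Mir467c (-0.30), Mir673 (-0.28), Mir1899 (-0.27) and Mir3110 (-0.15). Each of these falls was less than 1.6-fold. Those of Mir187 and Mir92b were each lost in 11 of 18 alternatives, of Mir15a and Mir1899 in 7, of Mir540 and Mir3110 in 5, of Mir185 and Mir3091 in 4 and of Mir467c in 1. Mir1956 lies in the gene of the cap-binding factor Eif4e, which was not called, and Mir3091 in the ribosomal protein gene Rps21.

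Clusters could be compared where neighbouring symbols lay within 10 kb of the next on 1 strand. Besides the Mir23a and Mir99b clusters, 3 compact pairs had both members among the 92 and no call in any comparison. Mir181c and Mir181d had log2 differences of 0.08 and 0.33 at 1 h, Mir191 and Mir425 in Dalrd3 had 0.11 each, and Mir3093 and Mir9-1 had -0.03 and 0.33. The 2 other let-7 genes among the 92, Mirlet7i and Mirlet7a-1, were not called in any comparison, with differences of -0.16 and -0.13 for washout against control.

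The imprinted Dlk1 to Dio3 region of chromosome 12, whose large microRNA clusters are expressed from the maternal chromosome, gave 7 of the 92: Mir673, Mir540, Mir665, Mir341, Mir758, Mir666 and Mir667. Their differences for washout against B/B 1 h ran from -0.48 to -0.10, and those of Mir666, Mir540 and Mir673 were called. At 1 h all 7 were above zero, by 0.03 to 0.30, and none was called. Probe sets of the region that name several genes are not among the 92. Of these, that of Rtl1 and Mir432 (0.57, adjusted p = 0.0178) and that of Rtl1 and Mir431 (0.30, adjusted p = 0.0405) were called higher at 1 h, and the second was lower after washout than at 1 h (-0.34, adjusted p = 0.00622). The single-symbol probe sets of the long noncoding genes Meg3 and Rian had means of 4.20 and 4.58, that of Meg3 with Mir770 had 5.36 and that of Mir134 with Mirg 5.59. None of these 4 was called in any comparison. In the Sfmbt2 region, whose hairpins are numerous and alike in sequence so that probe sets may share signal, Mir467c had differences of 0.31 at 1 h (adjusted p = 0.0568) and -0.30 for washout against B/B 1 h (adjusted p = 0.0124, lost without the third washout replicate), and Mir467e was not called.

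Of the 92 genes, 44 lie within a gene on the same strand, 14 within a gene whose strand is not given and 34 within no such gene of the RefSeq table. For 41 of the same-strand genes the host was also measured. In B/B 1 h against control, 1 pair was called in the same direction (Mir1938 and Ifrd1), 5 microRNA genes were called without their host and 3 hosts without their microRNA gene. Between washout and B/B 1 h, 4 pairs were called in the same direction (Mir1938 with Ifrd1, Mir5125 with Srrm2, and Mir99b and Mirlet7e with Spaca6), 2 in opposite directions (Mir5123 with B4galt1 and Mir301b with 2610318N02Rik), 9 microRNA genes alone and 8 hosts alone. In washout against control, 3 pairs were called in the same direction, 2 in opposite directions, 6 microRNA genes alone and 12 hosts alone.

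Across the 41 pairs the Pearson correlation of the log2 differences was 0.46 at 1 h, 0.33 for washout against B/B 1 h and 0.26 for washout against control, given as a description, since pairs can share a host and all share the arrays. Single pairs far from zero weigh on these values. At 1 h Mir1938 with Ifrd1 had 2.69 and 0.81, and Mir677 with Atp5b had -1.81 and -0.01. Correlations without such pairs were not computed. Large differences of a host were not always seen in its microRNA gene: Clcn5 rose by 1.17 after washout against B/B 1 h while Mir188 had -0.21, and Zfp84 rose by 0.99 while Mir1964 had 0.05. Of the 23 genes within 10 kb of the start of their host, 12 were called in at least 1 comparison, compared with 6 of 21 farther from it, 8 of the 14 within a gene of unknown strand and 13 of 34 with no host. That distance was chosen after the values were seen, and no such count was made over all genes. Whether calls differ with the place in a host was not tested.

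**Figure D5:**
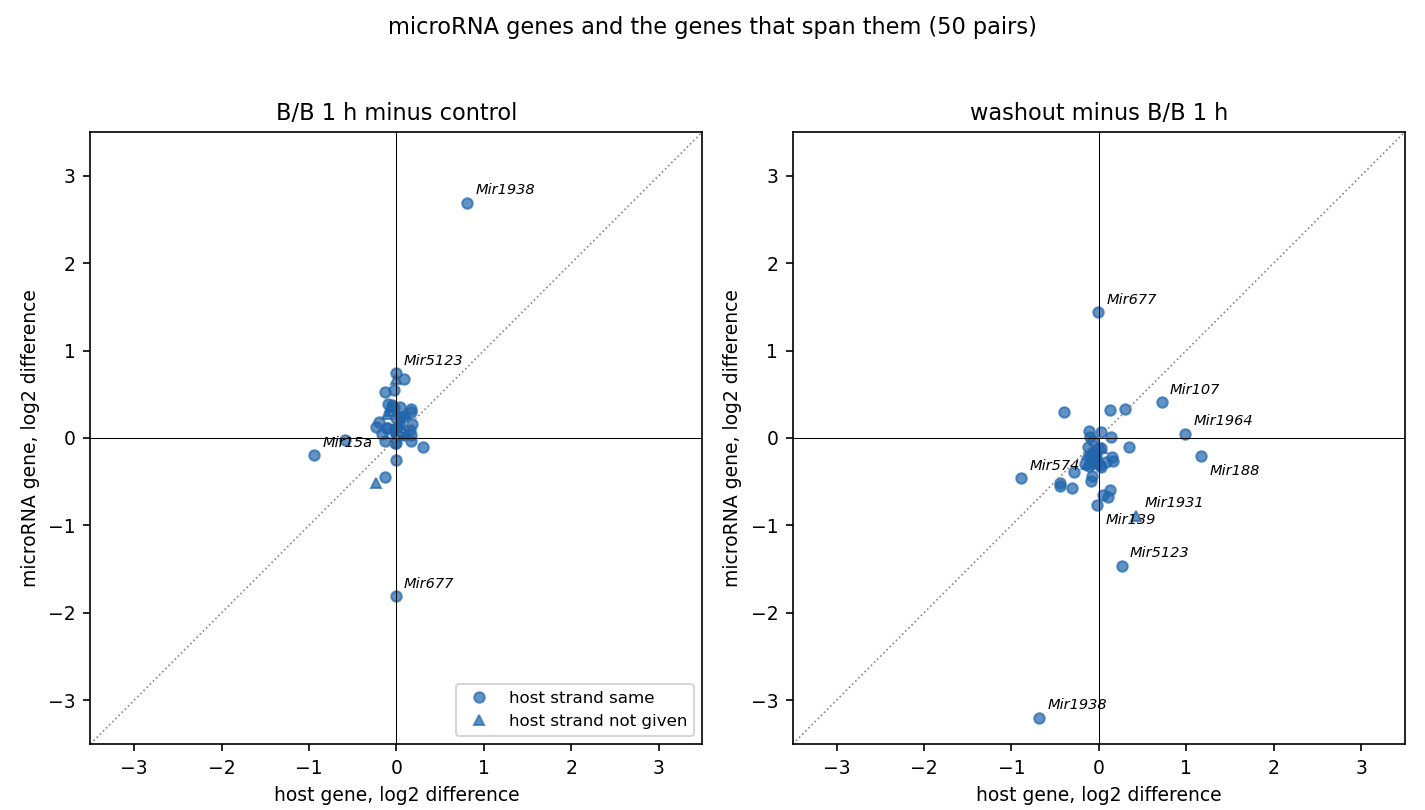
Log2 differences of microRNA genes (vertical axis) against those of the genes that span them (horizontal axis), for 50 pairs with a measured host, in B/B 1 h against control (left) and washout against B/B 1 h (right). Circles are hosts on the same strand, triangles hosts of strand not given, and the dotted line marks equal differences. Mir1938 lies in the same direction as Ifrd1 but farther from zero, and Mir677 lies far from zero where its host does not.

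Of the 10 genes with the highest mean levels, Mir5125, Mir1949 and Mir680-2 are described above. Mir5099 had group means of 12.75 in washout, 12.59 in B/B 1 h and 12.74 in control cells. Mir449b (11.58, 11.72 and 11.57 in the same order of groups), Mir692-1 (11.09, 11.22 and 11.15), Mir703 (9.91, 10.01 and 9.86), Mir1195 (8.73, 9.05 and 8.88) and Mir1954 (8.87, 8.86 and 8.83) were not called in any of the 3 comparisons. Mir1956 had 8.57, 9.01 and 8.77. Among other microRNA genes known in fibroblasts, Mir31 was among the 92 and was not called in any comparison.

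At the threshold, the 5 genes just inside the rule were Mir874 (mean 5.20), Mir107 (5.15), Mir5103 (5.15), Mir758 (5.14) and Mir505 (5.12), and the 5 just outside were Mir16-1 (5.09), Mir199b (5.08), Mir669j (5.07), Mir199a-1 (5.03) and Mir423 (5.02). Mir199b, a fibroblast microRNA gene, had group means of 5.03 in washout, 4.05 in B/B 1 h and 6.15 in control cells, so that it failed the rule through its lower groups. The 386 microRNA genes outside the rule were counted in the same fit. In B/B 1 h against control 1 rose (0.259%, against 1.01% of all genes) and 13 fell (3.37%, against 1.88%). In washout against B/B 1 h 21 rose (5.44%, against 16.6%) and 10 fell (2.59%, against 12.0%). In washout against control 9 rose (2.33%, against 14.5%) and 18 fell (4.66%, against 11.7%).

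Hairpins of the 92 genes were richer in G and C than those of the others. The median was 57.3% (31.2 to 74.8%) over 76 hairpins, against 46.4% (26.2 to 69.2%) over 324. Within the 92, GC content correlated with the log2 difference at 0.13 for B/B 1 h against control, -0.10 for washout against B/B 1 h and -0.01 for washout against control, over 76 hairpins and as a description. With the mean level, GC content correlated at -0.14 within the 92 and at 0.48 over the 324 other hairpins.

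Other small RNA genes above the same median mostly lay below control. Of 64 small nucleolar and Cajal body RNA genes, which guide the modification of ribosomal and spliceosomal RNA, 5 rose (7.81%, against 1.01% of all genes) and 16 fell (25%, against 1.88%) in B/B 1 h against control, with a median difference of -0.28. In washout against B/B 1 h 7 rose (10.9%, against 16.6% of all genes) and 27 fell (42.2%, against 12.0%). In washout against control 0 rose in the limma test (0 also at an unadjusted p under 0.05), against 14.5% of all genes, and 52 fell (81.2%, against 11.7%), with a median of -0.55. Rny1 and Rny3, the Y RNA genes, were lower in B/B 1 h than in control cells at a log2 difference of -0.96 (adjusted p = 0.00538) and -1.19 (adjusted p = 0.00174), while Rn7sk, Rpph1 and Terc were not called.

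Of the genes that make and use microRNAs, 32 listed genes were measured. In B/B 1 h against control 2 fell (6.25%, against 1.88% of all genes) and none rose (against 1.01%) in the limma test. At an unadjusted p under 0.05, 1 was higher and 7 were lower, against 1809 and 2287 of all 22180 genes. The 2 called were Dicer1, which cuts hairpins in the cytoplasm (-0.27, adjusted p = 0.00806), and Drosha, which cuts primary transcripts (-0.18, adjusted p = 0.0477). The call of Drosha was lost in 12 of 18 alternatives, among them quantile normalization, and that of Dicer1 in none. In washout against B/B 1 h 9 rose (28.1%, against 16.6% of all genes) and 5 fell (15.6%, against 12.0%). Dicer1 rose by 0.63 (adjusted p = 3.67e-06), and the Argonaute genes Ago1 and Ago2 by 0.34 and 0.29.

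Against control, 6 rose in washout cells (Dicer1, Ago1, Ago2, the Argonaute partner gene Tnrc6c, the uridylyltransferase gene Tut7 and the RNA editing gene Adar, by 0.30 to 0.38) and 9 fell. These are 18.8% and 28.1% of the list, against 14.5% and 11.7% of all genes. With quantile normalization this split was 7 higher and 7 lower, and with array medians centred 7 and 6. The largest fall was that of Zc3h12a, an endonuclease gene whose product can cut precursor hairpins and inflammatory messages (-1.03, adjusted p = 3.56e-06). Dgcr8 shares its probe set with Mir1306 and was counted apart, with log2 differences of -0.60 for B/B 1 h against control (adjusted p = 0.000325) and 0.73 for washout against B/B 1 h (adjusted p = 5.66e-06). Whether the levels of these genes bear on those of the microRNA genes was not tested.

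Likeness was measured for the 3 genes most changed over all groups, as the Pearson correlation over 9 arrays. Mir1938 was most like Mir1190 (0.936), Mir1931 (0.934) and Mir27a (0.93). Mir27a was most like Mir23a (0.978), Mir5123 (0.975) and Mir5125 (0.967). Mir677 was most like Mir18 (0.88), Mir505 (0.848) and Mir5099 (0.794).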

How the data were processed

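Gene expression was measured in 9 samples, with 3 arrays per group, and groups were taken from the treatment labels. RNA was extracted with Trizol and biotinylated cRNA was prepared, per the labels' protocols. The deposited values are log2 probe set summaries on 41345 probe sets, and their array medians of 4.60 to 4.68 were near each other. The submitters' processing notes name Partek 6.6. The methods of summary and normalization, the array annotation and the genome build are not given in the sources used here. Base 2 was inferred from the highest values, which is a limit of each fold. Values that are equalized between arrays do not show a change of total RNA.

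Of the probe sets, 23521 carried 1 symbol and gave 22180 genes (brightest probe set each), 1814 carried several and 16010 none. Of 506 microRNA probe sets with 1 symbol, 478 genes and 92 members resulted, 3 of the members with more than 1 probe set. The comparisons used limma 3.58.1 (statmod 1.5.0, R 4.3.3), with 1 model of 3 group means (6 residual and 3.38 prior degrees of freedom), with Benjamini-Hochberg adjustment over all genes within each comparison and adjusted p under 0.05 as threshold. Probe sets with several symbols were fitted and adjusted apart. Precision is limited by 3 arrays per group. An adjusted p under 0.05 is meant by rose, fell and called.

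RefSeq tables of GRCm38.p6 gave gene spans, strands and sequences: all 92 genes matched by gene ID, 76 had a hairpin and 82 a mature sequence. Since the annotation behind the array is not known, coordinates are those of the RefSeq sequences only. Genes named were the 10 highest and 10 lowest called genes without overlap in each comparison, the 10 of highest mean, clustered genes with a call in the cluster, listed textbook microRNAs, the 5 genes on either side of the threshold, hosts of named genes, and the most like genes. Any other gene was picked with its values in view. The members and lists were chosen with earlier results of these data known.

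The fit was repeated with array medians centred, with quantile normalization, without the lowest 30% of genes, with averaged probe sets, with array weights, with a variance trend, without moderation, with a robust prior, on the 2 groups of a comparison alone, at adjusted p under 0.01, without each array in turn, and over all microRNA genes. Counts by direction and list medians under each alternative were added after seeing the data. The code was tested on simulated data.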

Additional observations from a re-analysis of the deposited data

How the results depend on the processing

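No call of a named gene reversed its direction under any alternative run. The count of microRNA genes called in B/B 1 h against control, 15 as reported, was 6 without moderation, 24 with a variance trend, 6 at adjusted p under 0.01 and 29 over all 478 microRNA genes (12 higher and 17 lower), and ran from 7 to 15 with 1 array left out (7 without B/B 1 h replicate 1, 8 without control replicate 1, 9 without control replicate 2 and 8 without control replicate 3). For washout against control, 22 as reported, it was 14 without moderation, 11 at adjusted p under 0.01 and 49 over all microRNA genes (15 higher and 34 lower), and ran from 14 (without control replicate 3) to 23. For washout against B/B 1 h, 33 as reported, it was 20 at adjusted p under 0.01 and 64 over all microRNA genes (29 higher and 35 lower), and ran from 26 to 38. In the main run 2.89%, 26.2% and 28.6% of all genes were called in these comparisons, in the order given. The shares of all genes under the alternatives were not taken, so these counts show only how the calls depend on the setting. Of the microRNA pathway genes, 2 were called in B/B 1 h against control as reported, 4 with the lowest 30% left out, 5 with a variance trend, and 1 with only the 2 groups compared, with quantile normalization, with a robust prior and at adjusted p under 0.01, with 1 to 2 when 1 array was left out. The causes of these moves were not tested, apart from the changed threshold and number of genes. Of 84 calls of named genes, 54 were kept in all alternatives and 30 lost in at least 1 (12 of 20 in B/B 1 h against control, 10 of 30 in washout against control and 8 of 34 in washout against B/B 1 h). A further 34 differences that were not called changed sign. No paired analysis was possible because the labels give no replicate numbers shared by groups.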

Other observations

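MicroRNA genes that share a probe set with another symbol, which the rule leaves out, number 136 probe sets. In B/B 1 h against control 5 rose and 7 fell, in washout against B/B 1 h 28 rose and 8 fell, and in washout against control 21 rose and 10 fell. Some of these probe sets carry the same symbols and identical values on all 9 arrays, among them 12 of Mir669a-1, Mir669a-2 and Mir669a-3, so that 113 distinct measurements remain. Counted once, 5 rose and 7 fell in B/B 1 h against control, 16 rose and 8 fell in washout against B/B 1 h, and 9 rose and 10 fell in washout against control. The percentages called among all 1814 probe sets with several symbols were 5.18%, 24.0% and 22.9% in the same comparisons. The probe set of Mir322, Mir503, Mir351 and their host C430049B03Rik, a cluster known for effects on the cell cycle, took the course of Mir27a: 4.71, 4.68 and 4.70 in washout cells, 5.78, 5.57 and 5.39 in B/B 1 h cells and 4.88, 4.95 and 4.95 in control cells, with log2 differences of 0.65 at 1 h (adjusted p = 0.00231) and -0.89 for washout against B/B 1 h (adjusted p = 6.65e-05). The probe set of Mir22hg, Mir22 and Tlcd2 took the other course, at 7.21, 7.10 and 7.13 in washout cells, 6.69, 6.73 and 6.91 in B/B 1 h cells and 7.50, 7.60 and 7.52 in control cells (-0.76 at 1 h, adjusted p = 0.000363, and 0.37 for washout against B/B 1 h, adjusted p = 0.0023). The probe set of 5730408K05Rik and Mir5136 fell by 1.23 on the log2 scale at 1 h (adjusted p = 0.000363) and rose by 0.67 between 1 h and washout (adjusted p = 0.00153). These probe sets were chosen after their values were seen.

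Among the 386 dimmer microRNA genes, Mir199b read 4.97, 4.60 and 5.52 in washout cells, 3.76, 4.04 and 4.34 in B/B 1 h cells and 5.99, 6.13 and 6.34 in control cells, a fall by 2.11 on the log2 scale at 1 h (adjusted p = 0.000919) followed by a rise of 0.98 (adjusted p = 0.00741). Mir29a, which is known to repress collagen genes, fell by 0.88 on the log2 scale at 1 h (adjusted p = 0.00329) and was higher after washout than at 1 h by 0.53 (adjusted p = 0.00522). Mir301 differed by -0.57 at 1 h (adjusted p = 0.00762) and by 0.64 for washout against B/B 1 h (adjusted p = 0.000291). Mir365-1 read 3.60, 3.70 and 3.83 in washout cells, 3.73, 3.72 and 3.68 in B/B 1 h cells and 4.27, 4.93 and 4.98 in control cells, and was lower than in control cells by -1.02 both after washout (adjusted p = 0.000942) and at 1 h (adjusted p = 0.00992). Mir125b-1 was higher after washout than at 1 h by 1.60 (adjusted p = 0.00094), with 5.70, 5.67 and 5.52 in washout cells and 3.45, 4.02 and 4.59 in B/B 1 h cells. Apart from Mir199b, which stood next to the threshold, these genes were also chosen after their values were seen.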
